A study of Mus musculus with 6 samples.

Results

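The prostate epithelial lineage transcription factors are DNA-binding proteins that set and keep the identity of gland cells. The factors described here are Foxa1, Hoxb13, Gata2, Sox9, Trp63, Gata3, Klf5, Grhl2, Elf3 and Ehf. They were taken as the rows of the deposited value table annotated with exactly 1 gene symbol from this list, with the brightest transcript cluster kept for each gene. A transcript cluster is the set of array probes that reads 1 locus. This gave 9 of the 10 factors among 30142 genes. The cluster of Gata3, a zinc finger factor of luminal cells, also carried the symbol of another gene model, so no value is given for it.

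Gene expression was measured with Affymetrix MTA 1.0 arrays in tumor cells from mouse allografts of MCRedAL, a prostate cancer line that carries the red fluorescent protein mCherry. The groups were 3 samples from tumors of degarelix-treated mice and 3 from tumors of untreated mice, all male, with 1 array per sample. Degarelix blocks the gonadotropin-releasing hormone receptor and so withdraws androgen; it was given under the skin once tumors reached about 500 mm2 (unit as in the labels). All samples were sorted alike for mCherry and against the leukocyte marker CD45, the macrophage antigen encoded by Adgre1 and the myeloid marker CD11b. RNA integrity numbers were 9 or above, and the labels call the samples biological replicates. Titles of the degarelix samples bear the tag 7dPC without an explanation, and no sampling time was taken from it. Sources used here give no age for the host mice, and all tumors come from 1 cell line. The comparison addressed how tumor cells differed between androgen withdrawal and the castration-sensitive state.

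In the prostate, Foxa1 opens chromatin for the androgen receptor, and Hoxb13 and Gata2 bind beside that receptor at many of its enhancers. Trp63 maintains basal cells, Sox9 marks developing buds and progenitor-like states, and Klf5 acts in growth and differentiation of both layers. Grhl2 activates genes of cell junctions, while Elf3 and Ehf are ETS factors restricted largely to epithelia. Elf3 is known to be induced by inflammatory cytokines through NF-kB in human cells.

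The DNA before the Elf3 start site is shown because Elf3 had the lowest adjusted p of the 9 factors. RefSeq promoter windows matched 4 of the 10 factors, namely Elf3, Foxa1, Gata2 and Gata3, in 5 windows, Gata2 having a pair of start sites. The Elf3 sequence covers the 250 bases before the start, at chr1:135258473-135258722 on the minus strand of GRCm38.p6, and its capitals mark a match, read on the opposite strand, to an NF-kB motif of GGG, any 3 bases and then TTCC. The Foxa1 stretch, at chr12:57546235-57546263 on the minus strand of the same build, is shown for its match to the forkhead motif TGTTTAC of Foxa1's own family, again on the opposite strand.
Elf3: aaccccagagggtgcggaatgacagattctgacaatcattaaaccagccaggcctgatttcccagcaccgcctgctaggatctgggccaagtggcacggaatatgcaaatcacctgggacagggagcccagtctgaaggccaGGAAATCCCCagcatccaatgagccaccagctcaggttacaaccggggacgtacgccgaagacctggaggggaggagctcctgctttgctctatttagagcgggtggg
Foxa1: tatactgctttGTAAACAaagtgagggcc
The Elf3 match spans bases 108 to 99 before the start site. The NF-kB motif was present in 2 of the 5 windows, those of Elf3 and of 1 Gata2 start site, and in 4.65% of all 32851 promoter windows of this length. The forkhead motif was present in 1 of 5, that of Foxa1, and in 3.17% of all windows. The Sp or Klf motif GGGCGG was found in 4 of 5 windows, all but that of Elf3, and in 32.7% of all windows. None of the 5 windows held the GATA motif AGATAA, the ETS motif GGAAGT, the SOX motif AACAATG, the Grainyhead motif AACNGGTT or the androgen receptor half-site AGAACA. Among all windows these were present in 9.99%, 19.7%, 3.29%, 1.79% and 16.1%, in that order. Both strands were searched, an NF-kB match can share letters with an Sp or Klf or an ETS match, and a match is a run of letters, not a shown binding site.

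Values are log2 after the RMA procedure, and the 23 background probe sets had a median of 3.26. The brightest of them reached 6.93, a level exceeded by 29.8% to 30.9% of genes per array. Of 10 luminal markers, 5 lay above it on all 6 arrays, among them Krt8 at 11.83 to 12.09 in degarelix and 11.25 to 11.90 in untreated samples. The epithelial adhesion genes Cdh1 and Epcam lay within the background range, at 3.84 to 5.07 in degarelix and 3.79 to 4.92 in untreated samples. The counts above the brightest background probe set were 3 of 10 for basal, 1 of 9 for neuroendocrine, 6 of 9 for fibroblast, 1 of 9 for endothelial, 2 of 10 for smooth muscle, 0 of 10 for myeloid and 0 of 7 for lymphocyte markers. The mean level of the myeloid markers was 5.24 to 5.27 in degarelix and 5.21 to 6.33 in untreated samples, highest in untreated replicate 1, where the macrophage gene Lyz2 reached 9.02. Fibroblast markers averaged 7.95 to 8.58 in degarelix and 7.69 to 7.98 in untreated samples, highest in degarelix replicate 3. Called markers were Dcn and Fbln1 of fibroblasts, Mylk of smooth muscle, Krt19 of luminal and Krt14 and Krt15 of basal cells, all higher, and Cldn3 of luminal cells and Vwf of endothelium, both lower. The median change was 0.27 over the 9 fibroblast markers and -0.02 over the 10 smooth muscle markers, called or not. Postn, the only fibroblast marker lower after degarelix, changed by -0.68 without overlap of the groups (limma adjusted p = 0.0517). Acta2 of smooth muscle changed by -0.37 (adjusted p = 0.15). The part of these cell types in the results was not tested. In such bulk samples, fewer cells of a type and less RNA per cell cannot be told apart.

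Among the 9 factors, Elf3 and Sox9 rose, Grhl2 fell, and Foxa1, Hoxb13, Gata2, Trp63, Klf5 and Ehf did not pass the test. The 3 called factors stand against 11.7% of all genes called in limma at an adjusted p under 0.05. The factors called higher numbered 2, with 4.19% of all genes called higher, and 1 was called lower, with 7.51% of all genes called lower. Values lay above 0 for 4 factors and below 0 for 5, with a median change of -0.06, against 0.04 over all genes. The 3 degarelix values did not overlap the 3 untreated values for 6 of the 9 factors, against 31.2% of all genes. They lay higher for 3 factors, with 14.8% of all genes, and lower for 3, with 16.4%. On all 6 arrays, 6 factors were above the brightest background probe set, and 8 of 9 had a mean above the median gene. With only genes above that median fitted, limma called 3693 of 15071 genes, and 3 factors were called higher and 1 lower.

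**Figure D1:**
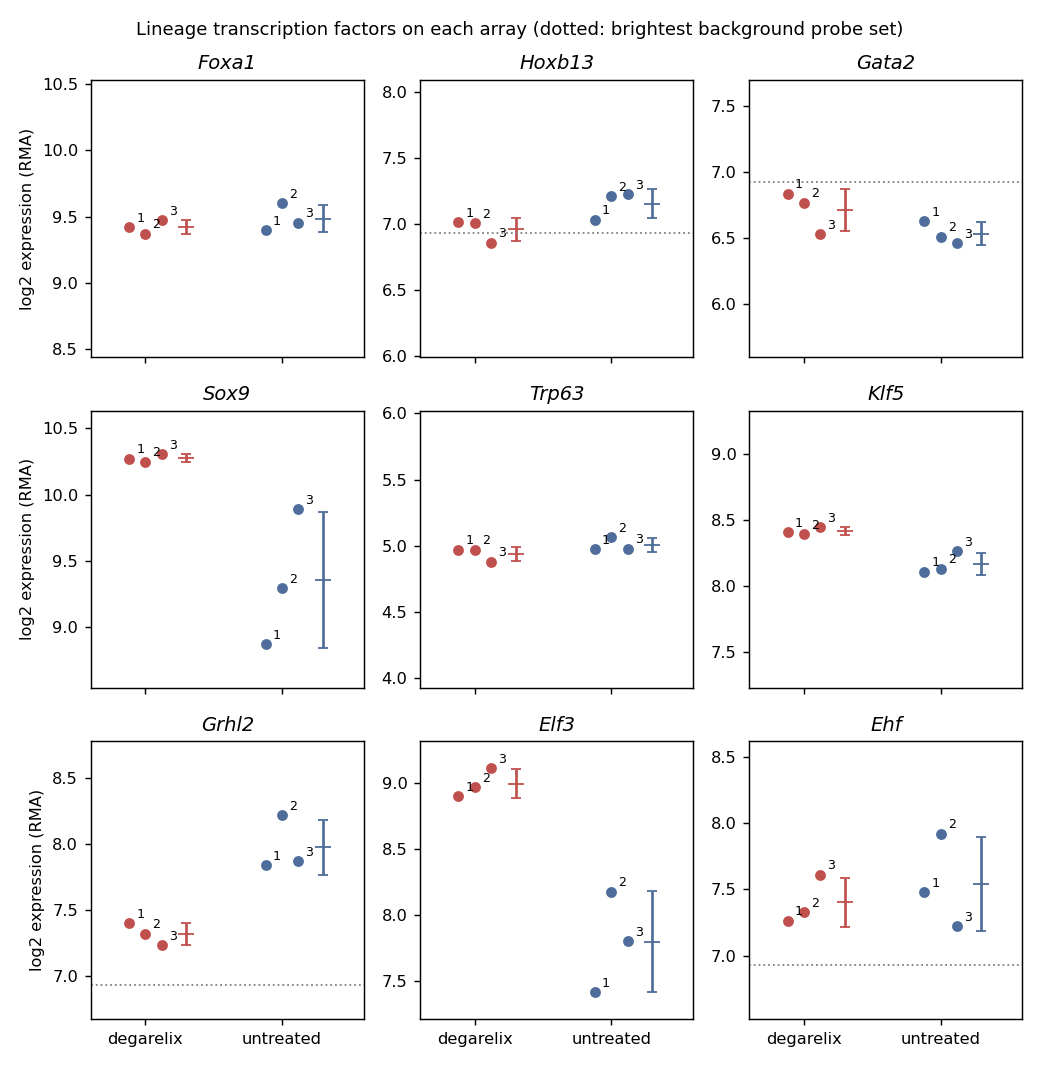
Log2 expression of the 9 factors on each array, with points for degarelix samples on the left and untreated samples on the right, numbered by replicate, beside the mean and SD of each group (n = 3). Every panel spans the same log2 range. Elf3 and Sox9 values of degarelix samples lie above all untreated values, those of Grhl2 lie below, and the dotted line marks the brightest background probe set at 6.93.

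Foxa1, the pioneer factor that opens chromatin ahead of the androgen receptor, was at 9.42, 9.37 and 9.47 in degarelix samples and at 9.40, 9.60 and 9.45 in untreated samples. The groups overlapped, with the lowest value in degarelix replicate 2 and the highest in untreated replicate 2. The change was -0.06 (SE 0.08, limma adjusted p = 0.616), and its 95% interval ran from -0.24 to 0.11. Changes of the size seen for Elf3, Sox9 or Grhl2 lie outside that interval.

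Hoxb13, the homeobox factor of the adult prostate, was at 7.01, 7.01 and 6.86 in degarelix samples and at 7.03, 7.21 and 7.22 in untreated samples. All 3 degarelix values lay just below the untreated ones, and degarelix replicate 3 fell under the brightest background probe set. The change was -0.19 (SE 0.08, limma adjusted p = 0.179) and missed the threshold, with an interval from -0.38 to -0.01 before any adjustment. Gata2, a zinc finger partner of the androgen receptor, was at 6.84, 6.77 and 6.53 in degarelix samples and at 6.63, 6.51 and 6.46 in untreated samples. These values overlapped, and all lay under the brightest background probe set. The measured difference was 0.18 (SE 0.09, limma adjusted p = 0.272), with an interval from -0.04 to 0.40.

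Sox9, a high mobility group factor of progenitor-like epithelial cells, was at 10.27, 10.25 and 10.30 in degarelix samples and at 8.87, 9.29 and 9.89 in untreated samples. Treated samples were close together and untreated samples were spread, with SDs of 0.03 and 0.51, and the groups did not overlap. Sox9 was higher by 0.93 after degarelix (SE 0.21, 1.9-fold, limma adjusted p = 0.0259), with an interval from 0.44 to 1.41. Untreated replicate 1 was the lowest, and without it the change was 0.68 (adjusted p = 0.0247). The call ended without degarelix replicate 1, 2 or 3 (adjusted p = 0.0916, 0.0713 and 0.0678) or untreated replicate 2 (0.0699), with each array centred on its median (0.0652), and in a test against a 1.2-fold change (0.178).

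Trp63, the p53 relative that maintains basal cells, was at 4.97, 4.97 and 4.88 in degarelix samples and at 4.97, 5.07 and 4.98 in untreated samples. Background probe sets reached higher than all 6 values, and the groups missed each other only narrowly, at 4.969 in degarelix replicate 1 against 4.972 in untreated replicate 1. The change was -0.07 (SE 0.07, limma adjusted p = 0.558), with an interval from -0.22 to 0.09.

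Klf5, a zinc finger factor of epithelial growth and differentiation, was at 8.41, 8.40 and 8.45 in degarelix samples and at 8.11, 8.13 and 8.26 in untreated samples. Every treated value lay above every untreated value. The difference of 0.25 (SE 0.07) narrowly missed the threshold (limma adjusted p = 0.0553). It passed with cyclic loess (0.33, adjusted p = 0.00935), quantile normalization (0.34, 0.00785), array weights (0.0179) or a filter on dim genes (0.0441). It stayed uncalled under the other 12 of 16 alternatives, among them median centring (0.187). With any 1 sample left out, the adjusted p of Klf5 ran from 0.0658 to 0.179.

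Grhl2, the Grainyhead factor that activates junction genes, was at 7.40, 7.32 and 7.23 in degarelix samples and at 7.84, 8.21 and 7.87 in untreated samples. All treated samples were lower, and untreated replicate 2 was the highest. Its change was -0.65 (SE 0.11, 1.57-fold lower, limma adjusted p = 0.00665), with an interval from -0.90 to -0.41. Leaving out any 1 sample gave changes from -0.72 to -0.53, each past the threshold; only the test against a 1.2-fold change ended the call (adjusted p = 0.0981).

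Elf3, an ETS factor of epithelial differentiation and inflammation, was at 8.90, 8.97 and 9.11 in degarelix samples and at 7.42, 8.18 and 7.80 in untreated samples. The groups were well apart, with the lowest value in untreated replicate 1 and the highest in degarelix replicate 3. Elf3 was higher by 1.2 after degarelix (SE 0.17, 2.29-fold, limma adjusted p = 0.00309), with an interval from 0.81 to 1.58. It passed the threshold under all 16 alternatives tried, at adjusted p from 0.000793 to 0.0204. Without untreated replicate 1 the change was 1.00, and without degarelix replicate 3 it was 1.14.

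Ehf, the other ETS factor of the list, was at 7.26, 7.33 and 7.61 in degarelix samples and at 7.48, 7.92 and 7.22 in untreated samples. The groups overlapped, and untreated replicates 2 and 3 held the highest and lowest values. The change was -0.14 (SE 0.17, limma adjusted p = 0.624), with an interval from -0.52 to 0.25. The difference between the changes of Elf3 and Ehf, 1.33 on the log2 scale, was chosen after the values were seen; its exact two-sided permutation p over samples was 0.1, the smallest that 3 against 3 allows.

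**Figure D2:**
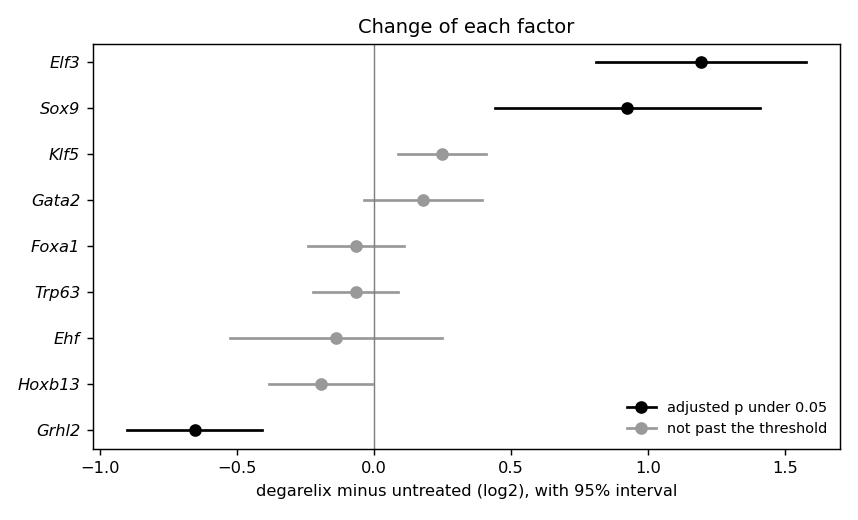
Change of each factor, degarelix minus untreated on the log2 scale, as a point with its 95% interval from limma before adjustment (n = 3 per group). Black marks the 3 factors past the threshold, Elf3 at 1.2, Sox9 at 0.93 and Grhl2 at -0.65, and grey the other 6.

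Samples of the untreated group differed among themselves more than the treated ones for some factors. Of the 9 factors, 7 had their lowest untreated value in untreated replicate 1, and 5 had their highest in untreated replicate 2. Some margins were narrow, as for Trp63 at 4.972 in untreated replicate 1 against 4.978 in untreated replicate 3. The same counts were not made over all genes, so they are a description only. Untreated replicate 1 also had the highest myeloid markers, and any link to the factors was not tested. For Elf3 the SD was 0.11 in degarelix and 0.38 in untreated samples. For Grhl2 the SD was 0.08 in degarelix and 0.21 in untreated samples. No test was made of these spreads.

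**Figure D3:**
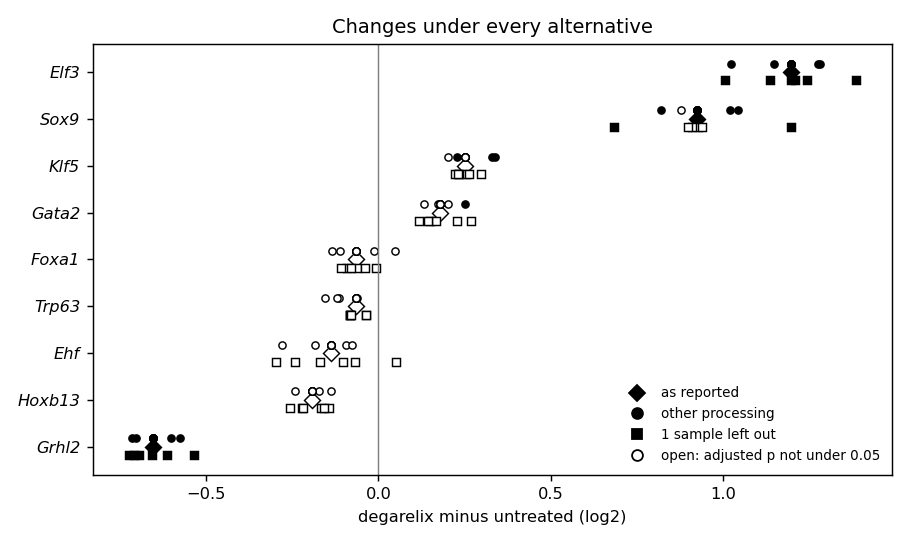
Change of each factor on the log2 scale as reported (diamonds), under the other processing settings (circles) and with 1 sample left out (squares). Filled symbols have an adjusted p under 0.05. Symbols of Elf3 are all filled, those of Sox9 span 0.68 to 1.2 and are partly open, and those of Foxa1 and Ehf lie on both sides of 0.

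For the 3 called factors, the genes with the closest profiles over the 6 arrays were sought among 7197 genes brighter on average than every background probe set. The factors themselves, unnamed gene models, small RNAs, olfactory receptors and immune receptor segments had been left out of these 7197. Likeness was the root mean square difference between log2 values after each gene was centred on its own mean. Choosing genes this way sets the direction and size of their changes, which are given as a description with no test. Closest to Elf3 were Cebpd, an acute-phase transcription factor gene (0.135), Plekhg6 (0.152) and the transcription elongation gene Ell2 (0.158). Cebpd was higher by 1.15, Plekhg6 by 1.16 and Ell2 by 1.02 after degarelix, with the untreated values of Cebpd all under the brightest background probe set. Closest to Sox9 were the integrin gene Itga5 (0.0568), the macrophage growth factor gene Csf1 (0.101) and Zfp469 (0.111). Their changes were 0.96, 0.91 and 0.88. Zfp469 was not among the called genes, and its value of 6.55 in untreated replicate 1 lay under the brightest background probe set. Like Sox9, Itga5 was lowest in untreated replicate 1, at 10.43, against 10.89 and 11.34 in the other untreated samples and 11.79 to 11.90 in degarelix samples. Closest to Grhl2 were Incenp, a gene of the chromosomal passenger complex (0.0701), Vwf, which encodes von Willebrand factor of endothelium (0.0713), and the DNA polymerase delta gene Pold1 (0.0795). Their changes were -0.70, -0.71 and -0.61, with the degarelix values of Vwf all under the brightest background probe set.

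**Figure D4:**
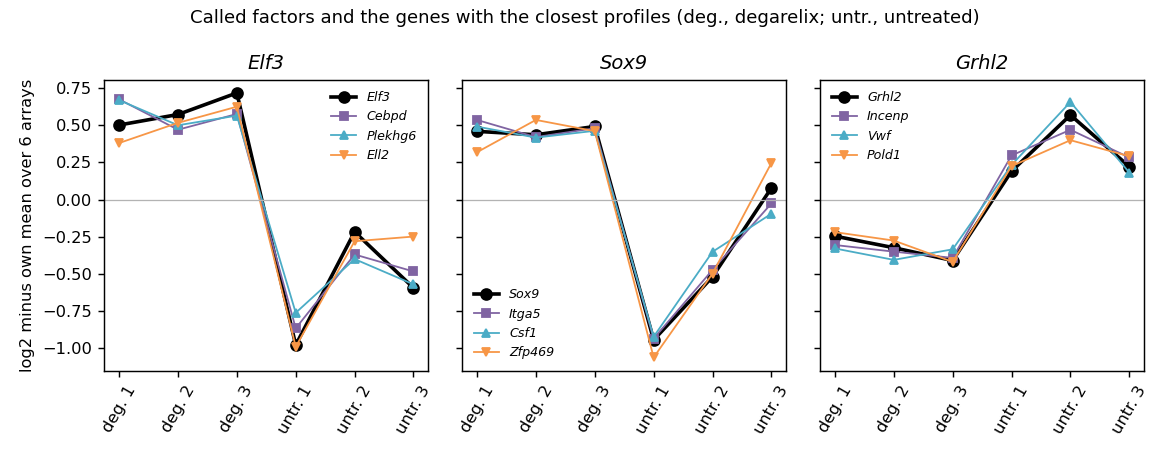
Log2 values minus the gene's own mean over the 6 arrays, for Elf3, Sox9 and Grhl2 (black) and the 3 genes with the closest profile to each (colours). Degarelix samples are on the left of each panel and untreated samples on the right. The Sox9 panel shows untreated replicate 1 lowest and untreated replicate 3 nearest the treated samples.

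Relatives of the factors mostly did not pass the test. Of 37 measured genes from the same families, 2 rose and 1 fell, 8.11% against 11.7% of all genes, with a median change of 0.07. Klf6, a Kruppel-like factor gene, was at 11.14, 11.18 and 11.25 in degarelix samples and 10.61, 10.76 and 10.83 in untreated samples, and rose by 0.45 (SE 0.08, limma adjusted p = 0.00896). Tfcp2l1, of the same superfamily as Grhl2, rose by 0.75 (SE 0.14, adjusted p = 0.01), with all values under the brightest background probe set. Foxc1, a forkhead gene, changed by -0.50 (SE 0.09, adjusted p = 0.0111), a call that ended without degarelix replicate 1 (adjusted p = 0.0518). The brightest uncalled relative, Klf4, was at 9.42, 9.34 and 9.69 in degarelix and 9.17, 9.02 and 9.17 in untreated samples (change 0.36, adjusted p = 0.0549). Klf4 passed with cyclic loess (adjusted p = 0.0291), quantile normalization (0.0403), array weights (0.0234), a filter on dim genes (0.0386) and a replicate block (0.0353). It stayed uncalled under the other 11 of 16 alternatives.

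Other regulators of prostate and epithelial cells showed 1 rise and 1 fall among 31 measured, 6.45% against 11.7% of all genes. Their median change was 0.07. Ovol1, which encodes a zinc finger repressor that guards epithelial identity, changed by -0.42 (SE 0.08, limma adjusted p = 0.0115), all its values being under the brightest background probe set. Ovol1 lost its call without degarelix replicate 2 (adjusted p = 0.0536). Runx1 rose by 0.38 (SE 0.10, adjusted p = 0.0457), a call lost on leaving out any sample but untreated replicate 3 (adjusted p from 0.0676 to 0.147) and with median centring (0.135). The brightest uncalled gene here, the corepressor gene Tle3, had a change of 0.09 (adjusted p = 0.538).

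Genes linked to Grhl2, most of them junction genes, gave 2 rises and 1 fall among 25 measured, 12% against 11.7% of all genes, with a median of 0.08. The serine protease gene Prss8 was at 8.21, 8.13 and 8.23 in degarelix samples and 7.62, 7.90 and 7.46 in untreated samples, and rose by 0.53 (SE 0.11, limma adjusted p = 0.017). Prss8 lost its call without degarelix replicate 1 (adjusted p = 0.0687). The claudin gene Cldn3 changed by -0.31 (adjusted p = 0.0385) and the tight junction gene Tjp3 rose by 0.31 (adjusted p = 0.0417), all Tjp3 values being under the brightest background probe set. Cldn3 and Tjp3 each lost the call without any 1 sample other than untreated replicate 1 (adjusted p from 0.0667 to 0.137 and from 0.0537 to 0.141) and with median centring (0.0505 and 0.0582). With cyclic loess the change of Cldn3 was -0.18 (adjusted p = 0.0783). The fall of Grhl2 itself was measured beside 22 linked genes that did not pass the test. Some of these, such as Cdh1, Dsp, Epcam and Ocln, lay under the brightest background probe set on all arrays and could have changed unseen. Others, such as Cldn4, F11r, Jup and Rab25, lay above it on all arrays.

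Genes linked to Trp63 gave 3 rises and 1 fall among 23 measured, 17.4% against 11.7% of all genes, with a median of 0.06. The basal keratin gene Krt15 was at 12.26, 12.12 and 11.94 in degarelix samples and 8.50, 7.83 and 8.36 in untreated samples, a rise of 3.88 (SE 0.17, limma adjusted p = 2.64e-05). The integrin gene Itga3 rose by 1.05 (SE 0.07, adjusted p = 0.000104) and the keratin gene Krt14 by 0.38 (SE 0.08, adjusted p = 0.0225), Krt14 lying under the brightest background probe set on all arrays. Nectin1, an adhesion molecule gene, changed by -0.52 (SE 0.12, adjusted p = 0.0265). Krt14 lost its call without degarelix replicate 1 or 2 or untreated replicate 2 or 3 (adjusted p from 0.0502 to 0.0805), and Nectin1 without the same samples (0.0697 to 0.0989) and with median centring (0.0519).

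Targets and partners linked to Sox9 gave 2 rises and 1 fall among 19 measured, 15.8% against 11.7% of all genes. Their median change was 0.16. The keratin gene Krt19 was at 9.17, 9.25 and 9.10 in degarelix samples and 7.54, 7.04 and 7.30 in untreated samples, a rise of 1.88 (SE 0.12, limma adjusted p = 8.85e-05). The growth factor receptor gene Fgfr3 rose by 1.01 (SE 0.08, adjusted p = 0.000253). Hapln1, a matrix link protein gene of cartilage, was at 5.55, 5.76 and 5.43 in degarelix samples and 8.13, 8.14 and 8.09 in untreated samples, a change of -2.54 (SE 0.09, adjusted p = 1.27e-05). Its degarelix values all lay under the brightest background probe set, though above the background median of 3.26. The size of that change is thus measured against a group not above the brightest background probe set. All 3 kept their calls under the 16 alternatives tried.

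Androgen-regulated luminal genes linked to Foxa1, Hoxb13 and Gata2 changed in both directions, with 4 higher and 5 lower among 23 measured. That was 39.1% against 11.7% of all genes, with a median change of 0.12 against 0.04. Like the other lists, this one was chosen with earlier results of these data known, so its share is a description only. Without degarelix replicate 1 the counts were 2 higher and 3 lower, and without degarelix replicate 2 or untreated replicate 2 the count lower was also 3. The metalloreductase gene Steap4 rose by 1.37 (SE 0.10, limma adjusted p = 0.000116) and Ell2 by 1.02 (SE 0.18, adjusted p = 0.00993). The chaperone gene Fkbp5 was at 8.01, 7.98 and 8.08 in degarelix samples and 8.53, 8.65 and 8.60 in untreated samples, a change of -0.57 (SE 0.07, adjusted p = 0.00151). Tmem97, a sterol-regulated membrane protein gene, changed by -0.58 (SE 0.08, adjusted p = 0.00201) and the kinase gene Camkk2 by -0.40 (SE 0.07, adjusted p = 0.00887).

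Genes of epithelial inflammation and differentiation linked to Elf3 and Ehf gave 7 rises and 1 fall among 23 measured, 34.8% against 11.7% of all genes, with a median of 0.27 against 0.04. This list too was chosen with earlier results of these data known and was not set against genes of like brightness. Its share is thus a description only. The count of rises was 3 or 4 without degarelix replicate 1 or 2 or untreated replicate 2 or 3, and 4 with median centring. The keratin gene Krt4 was at 8.01, 8.19 and 8.27 in degarelix samples and 6.47, 6.56 and 6.50 in untreated samples, a rise of 1.65 (SE 0.08, limma adjusted p = 3.79e-05), the untreated values all lying under the brightest background probe set. The prostaglandin synthase gene Ptgs2 rose by 0.92 (SE 0.12, adjusted p = 0.00252), the nitric oxide synthase gene Nos2 by 0.45 (SE 0.09, adjusted p = 0.0134) and the mucin gene Muc4 by 0.39 (SE 0.08, adjusted p = 0.0152). Nos2 and Muc4 lay under the brightest background probe set in both groups. Nos2 lost its call without degarelix replicate 2 (adjusted p = 0.058) and with median centring (0.0596). Muc4 lost its call without degarelix replicate 1 or 2 or untreated replicate 2 or 3 (adjusted p from 0.053 to 0.0716). Spink5, a protease inhibitor gene of stratified epithelia, was at 7.68, 7.88 and 7.82 in degarelix samples and 9.25, 9.62 and 8.33 in untreated samples, a change of -1.27 (SE 0.27, adjusted p = 0.0202). Its call ended without degarelix replicate 1, 2 or 3 (adjusted p = 0.0835, 0.0519 and 0.056).

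**Figure D5:**
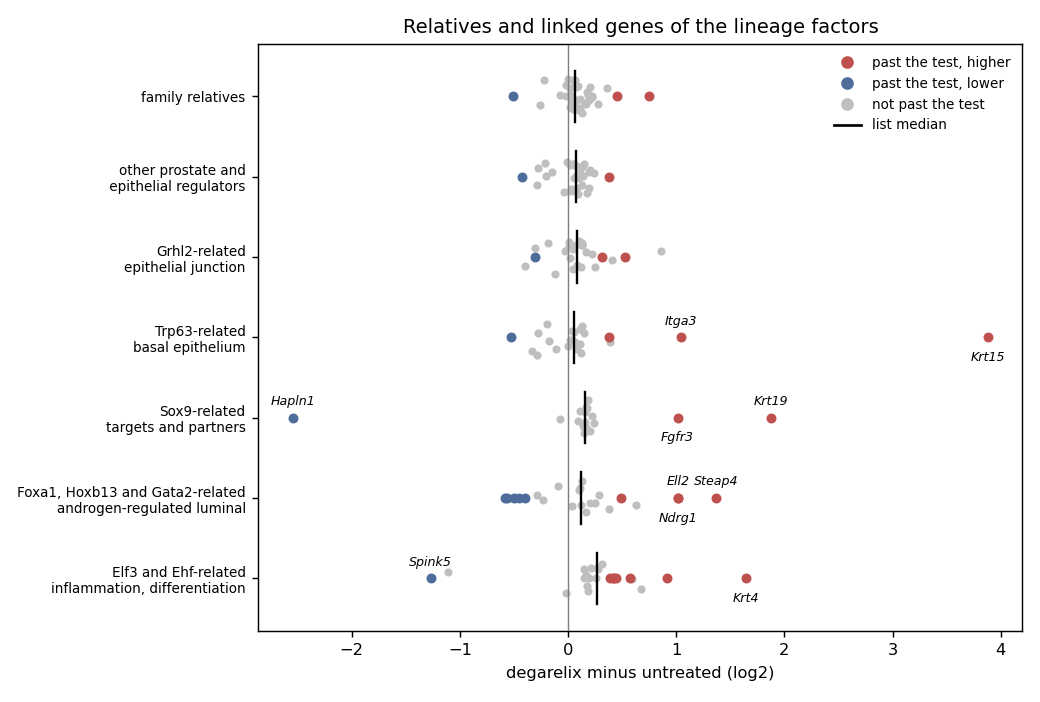
Change of each measured gene in the 7 lists, degarelix minus untreated (log2), with red for genes past the test and higher, blue for those past the test and lower, grey for the rest and a black bar for the list median. Genes past the test with a change over 1 in size are named; medians run from 0.06 for the Trp63-linked list to 0.27 for the Elf3 and Ehf-linked list.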

How the data were processed

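The deposited table holds log2 values that the authors made with Affymetrix Expression Console and RMA, per the submitters' processing notes; their versions and settings, and the build, are not stated in the sources used here. RMA subtracts a modelled background, equalises the arrays and combines the probes of a cluster, and changes of dim genes come out smaller than they are. The log2 scale was read from the values (1.96 to 13.7 over clusters). Of 72688 rows, 6732 control rows were left out. Of 65956 clusters, 30604 had 1 symbol, 2146 several and 33206 none; RefSeq (GRCm38.p6) supplied newer symbols for 827 through their Entrez identifiers. The number of arrays limits the precision.

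The 3 degarelix and 3 untreated arrays were compared by lmFit and eBayes (limma 3.58.1 in R 4.3.3), two-sided, Benjamini-Hochberg adjusted over 30142 genes, threshold 0.05. Changes are degarelix minus untreated with moderated SE. The script was tested on simulated data. The factors, the 7 lists, the 8 marker lists and the naming rule were chosen with earlier results of these data known. The rule named all factors, up to 4 called genes per list by adjusted p, up to 2 called against the majority, the brightest uncalled relative and other regulator and the 3 closest profiles per called factor. Of 198 distinct list genes 181 were measured. Alternatives were other scalings, variance models, array weights, filters, cluster rules, a 1.2-fold test, a replicate block and leaving out each sample. Figures used matplotlib 3.10.9 in Python 3.11.15.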

Additional observations from a re-analysis of the deposited data

How the results depend on the processing

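Elf3 passed the threshold in limma under all 16 alternatives and Grhl2 under all but the test against a 1.2-fold change. The change of Foxa1 turned to 0.0482 with cyclic loess. That of Ehf ran from -0.298 to 0.0521 with 1 sample left out, turning positive without untreated replicate 2. Against 2 factors higher and 1 lower as reported, median centring gave 1 higher, gene-by-gene array weights 4 higher and 2 lower (adding Klf5, Gata2 and Hoxb13), and the 1.2-fold test 1 higher and 0 lower, where 241 genes were higher and 508 lower over the whole table. Leaving out 1 sample gave 1 to 2 factors higher and 1 lower (1 in every case). Of the distinct list genes, 21 were higher and 11 lower as reported, against 62 and 22 with array weights, 7 and 3 in the 1.2-fold test, and 11 to 24 and 5 to 16 with 1 sample left out. Over all genes 1262 were higher and 2264 lower as reported, 691 higher with median centring, 5052 and 4860 with array weights, and 624 to 1651 and 966 to 3253 with 1 sample left out. Array weights gave degarelix replicate 2 a weight of 3.42 and degarelix replicate 3 one of 0.387. The cause of these shifts was not tested. The shared replicate numbers were not taken to pair the samples, since same-numbered samples had deviations correlated at 0.163, 0.04 and 0.196, not all over 0.1. Every sample correlated best with its own number, a hint from the data and not from the design. With the replicate block 1435 genes were higher and 2371 lower, Elf3, Sox9 and Grhl2 kept their calls (adjusted p = 0.00534, 0.0263 and 0.0129), Runx1 lost its call (0.0504), and Klf4 and Zfp469 gained one (0.0353 and 0.0474). Of 559 values of 35 other named genes under alternatives, 489 kept direction and side of the threshold, 61 lost and 9 gained the call, and 0 changed sign. The 1.2-fold test accounted for 18 of the lost calls. Factors under the brightest background probe set, Gata2 and Trp63, could have changed unseen.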
